A study of Mus musculus with 6 samples.

Results

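The genes described here were the chemokines, the interleukins and their receptors in gastrocnemius muscle (GAS). They were the symbols of the gene count table that start with Ccl, Cxcl, Ccr, Cxcr or Il followed by a digit, together with Cx3cl1, Cx3cr1, Tnf and Ifng. Of 24054 symbols in the table, 141 matched, and the 55 with a sum of 30 or more counts over the 6 libraries were kept as members. RNA-seq was done on GAS of male C57BL/6 mice, 3 with a muscle-specific knockout of the transcription factor interferon regulatory factor 4 (MI4KO) and 3 with muscle-specific overexpression of it (MI4OE). MI4KO mice carried Irf4 flox alleles and Myl1-cre, and MI4OE mice carried Rosa26-LSL-IRF4 and the same Myl1-cre, which the study describes as selective for skeletal muscle. Both groups therefore carried the Cre, and no mouse without it was among the libraries, so each difference below is overexpression set against knockout and not against wild type. The labels give a high fat diet for all 6 mice, while the study describes chow-fed animals, and the ages of these mice were not given in the sources used here.

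Chemokines are small secreted proteins that steer leukocytes through receptors with 7 transmembrane passes, and they are sorted into CC, CXC and CX3C classes by the spacing of their first cysteines. Interleukins signal through receptor chains that are often shared, such as gp130 (Il6st), and many of these chains pass the signal on through JAK kinases and STAT factors, which in turn induce SOCS proteins and CISH as brakes. In resting muscle most of these genes are transcribed by the cells between the fibres (macrophages, fibroblasts, endothelium), while the fibres themselves are known to make some of them, such as interleukin 15. IRF4 is a factor of lymphoid and myeloid cells that binds interferon-type DNA elements.

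The labels held against the targeted gene. Irf4 read 0.246, 0 and 0.0672 CPM (counts scaled to a common library size) in the MI4KO libraries and 140.9, 369.0 and 261.1 CPM in the MI4OE libraries, with a log2 fold change of 11.24 (SE 0.78) and an edgeR adjusted p of 0.0055. Library totals ran from 18828605 to 29239585 counts, at which 3 counts corresponded to 0.101 to 0.148 CPM. MI4OE replicate 1 was the shallowest library and stood apart, since its 10 most abundant genes took 25.5% of the counts against 32.8% to 36.8% in the others. It held the highest value of 16 of the 55 members, and MI4KO replicate 1 held the lowest value of 17. The labels give each library its own number and no batch, and p-values measure the spread between these libraries.

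Most of the gene set was close to silent. Of the 141 symbols, 86 stayed below 30 counts, and 36 of these had no count in any library. The classical inflammatory cytokines were among them. Il6 had 1 count over all 6 libraries, Tnf 7, Il1b 6, Ifng 1 and Il10 none. The monocyte chemokine Ccl2 had 20 counts and the T-cell chemokine Ccl5 had 28. Cxcr3, a receptor of activated T cells, had 9 counts. These genes were not tested between genotypes at such counts. The 6 reads of Il1b were all in MI4KO, 1, 2 and 3 against none in MI4OE. It was picked from 50 symbols with 1 to under 30 counts, and no library held more than 3 of its reads. The threshold fell between Ccl5 at 28, Il22ra1 at 26.8 and Il18r1 at 25.5 counts on the outside and Ccr2 at 40.7, Il1bos at 44 and Il27ra at 51 counts on the inside. By class, 12 of 24 Ccl symbols, 6 of 14 Cxcl and Cx3cl symbols, 4 of 18 chemokine receptors and 33 of 83 Il symbols were kept.

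Levels between genes were compared in TPM, transcript counts scaled by length and library size. The mean over the 6 libraries lay over 10 TPM for 6 members, from 1 to 10 TPM for 25 and under 1 TPM for 24. The interleukin 11 receptor chain Il11ra1 led with a mean of 34.2 TPM, next to the chemokine Cxcl14 with 34.1 TPM and the shared receptor chain Il6st with 33.9 TPM. Cxcl12, which holds stem and progenitor cells in their niches, followed with 21.4 TPM, the eosinophil chemokine Ccl11 with 19.9 TPM and the skin-type chemokine Ccl27a with 19.6 TPM. Together these 6 genes made up 65.2% of the summed mean TPM of the members. The ranges of each of these genes and the next in the order overlapped over the libraries. Il11ra1 and Il6st together form the interleukin 11 receptor, and the ligand Il11 had 23.7 counts over all 6 libraries. Ccl27a and Il11ra1 lie beside each other on opposite strands, and their annotated exons overlap by 8 bases.

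**Figure D1:**
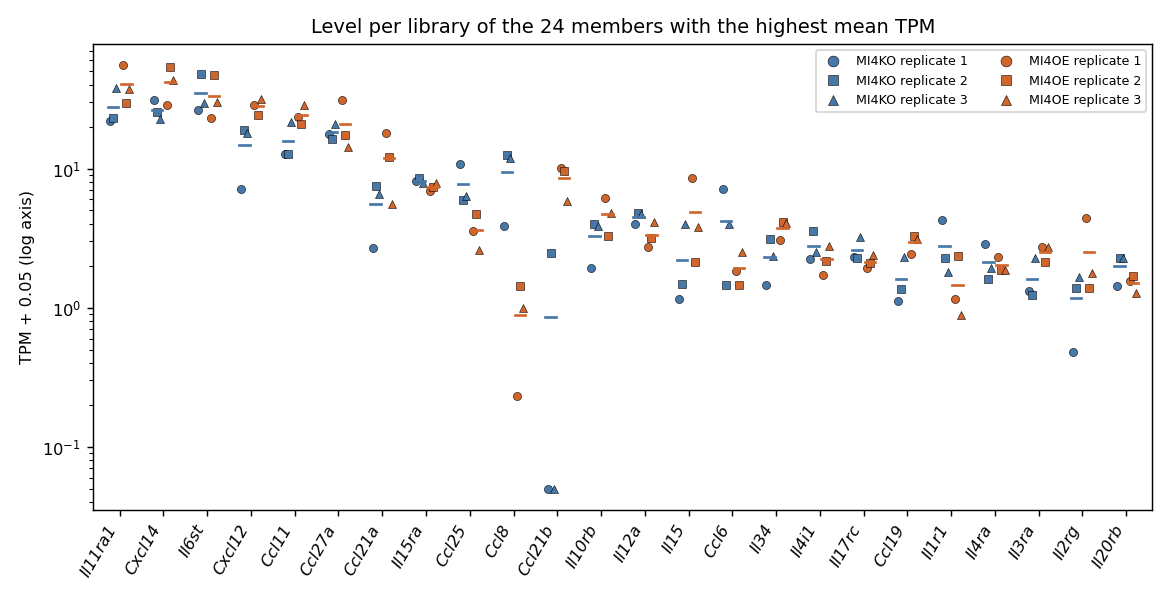
Level of the 24 members with the highest mean TPM in each of the 6 libraries (y axis, TPM + 0.05 on a log axis), by gene (x axis), with MI4KO in blue, MI4OE in orange and a bar at each group's mean. The 6 genes over 10 TPM stand on the left with overlapping groups except for Cxcl12, and Ccl8 and Ccl21b are the genes whose groups lie farthest apart.

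The comparison asked which of these genes differed between muscle that lacks IRF4 and muscle that has an excess of it. After the low-count filter 52 members were tested in 1 edgeR quasi-likelihood fit over 12660 genes, and Ccr2, Il1bos and Il27ra were not tested. At an adjusted p under 0.05 no member was called, against 0.0237% of all genes (3 genes). DESeq2 and the edgeR exact test each called 2 members, Ccl8 and Ccl24, against 0.877% and 0.885% of all genes. The study called genes at 1.5-fold with p under 0.05, and by this criterion, without adjustment, 10 members were called, 19.2% of those tested, against 6.64% of all genes. Of the 10, 7 were higher in MI4OE (background 4.36%) and 3 were lower (background 2.28%). At an unadjusted p under 0.05 alone the same 10 members passed, against 7.58% of all genes. The CPM ranges of the groups did not overlap for 13 members, 25% of those tested, against 12.9% of all genes. Of these, 8 were higher (background 7.38%) and 5 lower (background 5.48%) in MI4OE. The median log2 fold change of the 52 members was 0.24, while that of all genes tested was at 0.00. Ccl24, Ccl8 and Cxcl10 passed the filter through 1 group alone, which favours a difference, and of the other 49 members 7 were at the criterion (14.3%). Among them Ccl21b and Il33 had fewer MI4KO libraries over the filter level (1 and 2) than MI4OE libraries (3 each), so the filter can still favour them. Of these 7, 6 were higher (12.2%) and 1 was lower, Ccl25 (2.04%, near the background). Of the same 49 members 10 did not overlap (20.4%), 7 higher and 3 lower. Another 12 members met the criterion in at least 1 of 16 alternatives, 6 of them only with 1 library left out (Ccl9, Cx3cr1, Il10rb, Il15, Il17rc and Il2rg). The others were Il1r1 in 6 alternatives, Cxcl14 in 5, Ccl11, Ccl21a and Ccl6 in 4 each and Ccl19 in 3. How many of all genes were gained in this way was not counted. Single alternatives put 3.7% to 10.2% of all genes at the criterion.

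Of 25 ligands tested 9 were at the criterion (36%), with 6 higher and 3 lower, and of 25 receptors 1 was (4%), against 6.64% of all genes (4.36% higher and 2.28% lower). Without the 3 ligands that passed the filter through 1 group, 6 of 22 ligands were (27.3%), and the difference between ligands and receptors was not tested. These 6 still include Ccl21b and Il33, which had 1 and 2 MI4KO libraries over the filter level against 3 MI4OE libraries each. The median log2 fold change was 0.55 over the ligands and 0.16 over the receptors. All 10 genes are described by role below, and none of them passed an adjusted p of 0.05 in the edgeR quasi-likelihood fit, where the lowest adjusted p of a member was 0.422.

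**Figure D2:**
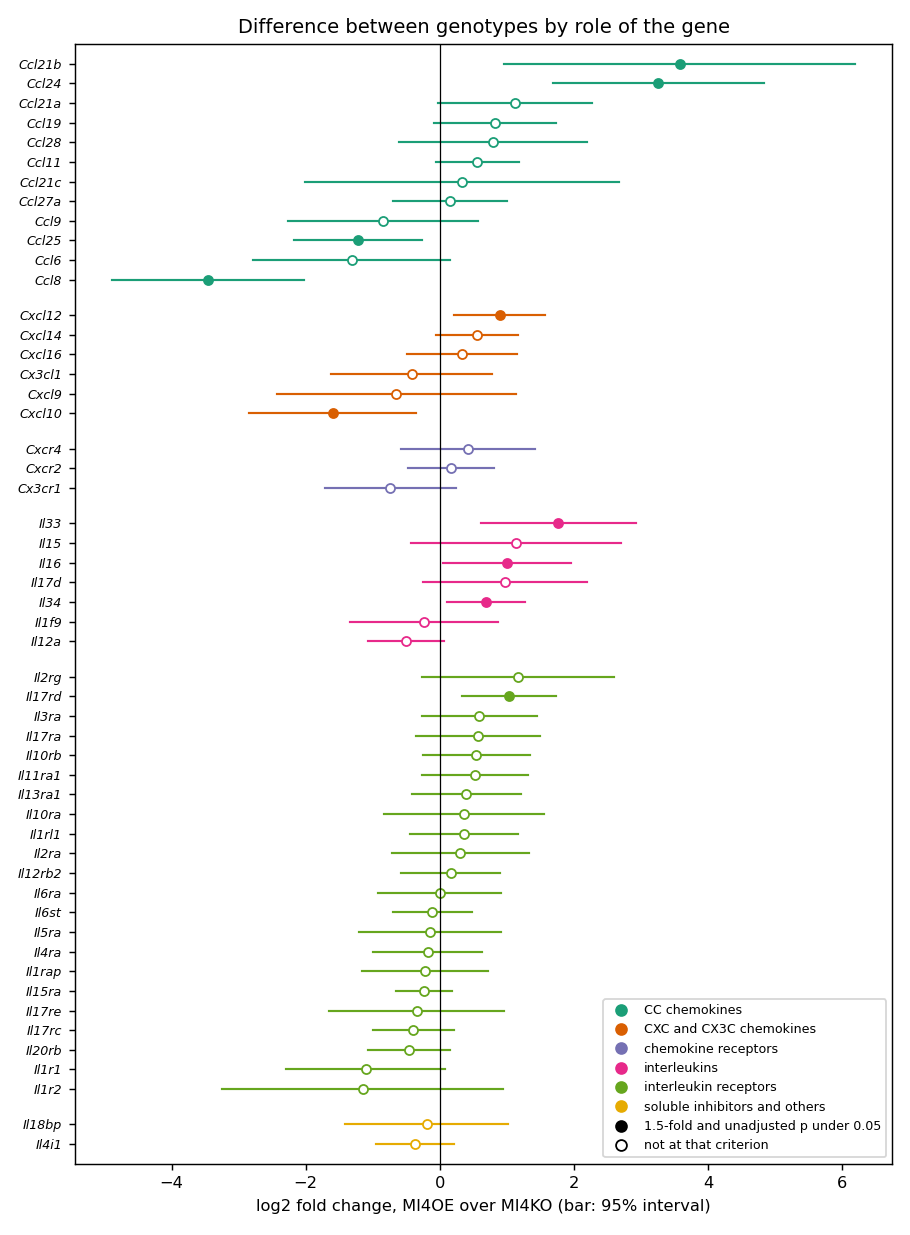
Fitted log2 fold change of MI4OE over MI4KO (x axis) with its 95% interval for the 52 members tested, one gene per row and sorted within each role, where filled points meet 1.5-fold and an unadjusted p under 0.05. The 9 filled ligands lie on both sides of 0, from Ccl21b at 3.57 to Ccl8 at -3.46, and Il17rd is the sole filled receptor.

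The promoters were read first for the DNA letters to which IRF factors are known to bind. RefSeq promoters (GRCm38.p6, 250 bases before to 50 bases after the start site) were found for 45 of the 55 members, as 56 promoters. Those of Ccl11, Ccl21c, Ccl24, Cxcl16, Il10ra, Il10rb, Il15, Il17ra, Il27ra and Il34 were not used here. Both strands were searched for the interferon-stimulated response element core, which is GAAA, any 2 bases and GAAA, and for the ETS-IRF composite, which is GGAA, any 2 bases and GAAA. They differ in their second letter and so cannot match at the same position and strand. The core was found in 4 member promoters (7.14%) and in 3.44% of 32851 promoters of the same length. The composite was found in 3 member promoters (5.36%) and in 2.72% of all. The STAT-type letters, TTC, any 3 bases and GAA, were found in 6 member promoters (10.7%) and in 8.3% of all. The 250 bases before the start of the 6 genes with an IRF-type match upstream are printed here 5′ to 3′ on the gene's strand, because they show which of the genes with and without a difference carry such letters, and capitals mark the matches of any of the 3 motifs.
Ccl8, chr11:82114935-82115184, strand +: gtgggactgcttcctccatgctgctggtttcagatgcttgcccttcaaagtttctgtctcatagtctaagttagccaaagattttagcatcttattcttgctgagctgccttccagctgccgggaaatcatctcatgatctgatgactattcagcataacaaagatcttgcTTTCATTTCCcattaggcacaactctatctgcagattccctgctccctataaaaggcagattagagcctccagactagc
Cxcl10, chr5:92348890-92349139, strand -: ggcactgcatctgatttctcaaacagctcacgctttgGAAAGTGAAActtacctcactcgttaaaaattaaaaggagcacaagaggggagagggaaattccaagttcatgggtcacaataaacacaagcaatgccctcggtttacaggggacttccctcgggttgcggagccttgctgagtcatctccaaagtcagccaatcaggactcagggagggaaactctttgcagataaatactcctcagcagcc
Ccl19, chr4:42756366-42756615, strand -: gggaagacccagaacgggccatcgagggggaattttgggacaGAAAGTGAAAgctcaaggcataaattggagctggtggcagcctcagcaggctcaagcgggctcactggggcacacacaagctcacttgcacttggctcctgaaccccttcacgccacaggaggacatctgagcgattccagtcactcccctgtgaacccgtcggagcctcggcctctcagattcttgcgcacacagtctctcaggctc
Ccl21a, chr4:42773992-42774241, strand -: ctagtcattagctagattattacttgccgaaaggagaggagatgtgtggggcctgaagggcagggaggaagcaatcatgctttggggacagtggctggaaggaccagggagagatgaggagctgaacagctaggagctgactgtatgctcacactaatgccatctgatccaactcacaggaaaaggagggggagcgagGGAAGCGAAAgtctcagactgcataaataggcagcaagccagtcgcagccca
Cxcl14, chr13:56296552-56296801, strand -: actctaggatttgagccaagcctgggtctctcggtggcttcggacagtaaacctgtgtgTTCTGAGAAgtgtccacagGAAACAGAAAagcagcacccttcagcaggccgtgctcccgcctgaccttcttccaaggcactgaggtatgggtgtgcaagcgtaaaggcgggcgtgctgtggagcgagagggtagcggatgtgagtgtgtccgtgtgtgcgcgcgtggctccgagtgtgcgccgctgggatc
Il6st, chr13:112463820-112464069, strand +: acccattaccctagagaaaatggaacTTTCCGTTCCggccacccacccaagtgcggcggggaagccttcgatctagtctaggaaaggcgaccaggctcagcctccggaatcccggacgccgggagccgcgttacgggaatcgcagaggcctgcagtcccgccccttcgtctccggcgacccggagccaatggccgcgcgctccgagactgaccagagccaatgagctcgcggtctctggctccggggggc
The fourth gene with the core, Il1rap, had it 21 bases after its start site. In Cxcl10 the core lay 213 bases before the start, in Ccl19 208 bases and in Cxcl14 172 bases, where the other capitals are a STAT-type match. The composite lay 52 bases before the start of Ccl21a, and on the other strand 79 bases before that of Ccl8 and 224 bases before that of Il6st. Of the 6 genes printed, Ccl8 and Cxcl10 were lower in MI4OE at the criterion, and both had passed the low-count filter through MI4KO alone. Ccl19 was higher without overlap, and Ccl21a was higher with overlapping groups (log2 fold change 1.12). Cxcl14 and Il6st, among the most abundant members, had overlapping groups. Any part of these letters in the differences was not tested. Of the other genes at the criterion with a promoter found, none had any of the 3 motifs in this window. Among them were Ccl25, which was lower, and Ccl21b, Cxcl12, Il16, Il17rd and Il33, which were higher. The counts of Ccl21b are uncertain, since reads had to be divided between nearly identical copies. Its copy Ccl21a carries the composite.

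Among the 12 CC chemokines, 2 were higher and 2 lower at the criterion (background 4.36% and 2.28%), and 1 of each, Ccl24 and Ccl8, had passed the filter through its higher group alone. Ccl8, a chemoattractant of monocytes and T cells, was the most strongly lower member. It read 1.15, 2.69 and 2.99 CPM in MI4KO and 0.0492, 0.315 and 0.221 CPM in MI4OE. Every MI4OE library lay below every MI4KO library, and the 3 MI4OE libraries held 1, 9 and 5 reads. The log2 fold change was -3.46 (SE 0.62, edgeR unadjusted p = 0.000614, adjusted p = 0.422), and the mean CPM was 11.7-fold higher in MI4KO. In DESeq2 the adjusted p was 1.0e-04 and in the exact test 9.8e-05, and over all alternatives it ranged up to 0.912. The main receptor known for mouse Ccl8, Ccr8, had no count in any library.

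Ccl24, an eosinophil chemokine made by alternatively activated macrophages, moved the other way. It read 0.246, 0.0396 and 0.0672 CPM in MI4KO, from 6, 1 and 2 reads, and 1.23, 0.664 and 1.55 CPM in MI4OE. The groups did not overlap, and the log2 fold change was 3.26 (SE 0.67, edgeR unadjusted p = 0.00152, adjusted p = 0.433). Without MI4KO replicate 1, which held 6 of the 9 MI4KO reads, it was 4.27. DESeq2 gave an adjusted p of 0.0083 and the exact test 0.0022. Ccl11, which shares the receptor Ccr3 with Ccl24, read 9.21, 6.74 and 13.2 CPM in MI4KO and 15.2, 11.5 and 16.3 CPM in MI4OE. Its groups overlapped through MI4KO replicate 3, with a log2 fold change of 0.56 (95% interval -0.06 to 1.19). Ccr3 itself had 1 count over all 6 libraries.

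Ccl19 and the Ccl21 copies are the ligands of Ccr7, which draw dendritic cells and lymphocytes into lymphatic vessels and lymph nodes. Ccl19 read 0.491, 0.436 and 0.873 CPM in MI4KO and 0.984, 1.12 and 1.10 CPM in MI4OE. The groups did not overlap, the log2 fold change was 0.82, and its interval from -0.09 to 1.72 included 0 (edgeR unadjusted p = 0.0703). Ccl21b had no count in MI4KO replicates 1 and 3 and 0.951 CPM in replicate 2, while the MI4OE libraries held 4.82, 3.95 and 2.47 CPM, with a log2 fold change of 3.57 (SE 1.13, edgeR unadjusted p = 0.014, adjusted p = 0.546). In DESeq2 the log2 fold change of Ccl21b was 3.56 with an unadjusted p of 0.0985, not at the criterion. Without MI4KO replicate 2 both remaining MI4KO libraries were at 0, and the fitted log2 value became 9.55, which depends on the prior count. Ccl21a read 1.51, 3.09 and 3.12 CPM in MI4KO and 9.20, 5.21 and 2.47 CPM in MI4OE, with overlap through MI4OE replicate 3. Ccl21a, Ccl21b and Ccl21c are nearly identical copies between which RSEM has to divide the reads, so the values of each copy are uncertain. When the 3 copies were summed, a choice made after the values were seen, the sum was 1.76, 4.52 and 3.39 CPM in MI4KO and 14.4, 9.16 and 5.83 CPM in MI4OE. The summed groups did not overlap, and the log2 fold change was 1.6 (SE 0.42, edgeR unadjusted p = 0.00600, adjusted p = 0.492), a 3.03-fold difference. Ccr7 had 14 counts in all.

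Ccl25, a thymic and gut chemokine for T cells, was lower. It read 7.86, 3.13 and 3.90 CPM in MI4KO and 2.31, 2.59 and 1.46 CPM in MI4OE. All MI4OE libraries lay below the MI4KO ones, with MI4KO replicate 1 far above its group, and the log2 fold change was -1.22 (SE 0.41, edgeR unadjusted p = 0.0182, adjusted p = 0.546). Without that library it was -0.73 and without MI4OE replicate 3 -1.03, and neither was at the criterion. An exon of Ccl25 overlaps one of Elavl1 on the opposite strand by 181 bases. Its receptor Ccr9 had 16 counts. The macrophage chemokines Ccl6 and Ccl9 had the same outlying library. Ccl6 read 7.16, 1.03 and 3.36 CPM in MI4KO and 1.62, 1.08 and 1.94 CPM in MI4OE, with a log2 fold change of -1.32 (interval -2.79 to 0.16). Ccl9 had -0.84, Ccl28 0.79 and Ccl27a 0.16 on the same log2 scale, all with overlapping groups.

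Of the 6 CXC and CX3C chemokines, Cxcl12 was higher and Cxcl10 lower at the criterion (background 4.36% and 2.28%). Cxcl10 had passed the filter through MI4KO alone. Cxcl12 read 17.8, 35.4 and 36.0 CPM in MI4KO and 64.0, 43.6 and 58.0 CPM in MI4OE. It was the sole member over 10 TPM whose groups did not overlap, with MI4KO replicate 1 at the bottom and MI4OE replicate 1 at the top. The log2 fold change was 0.89 (SE 0.29, edgeR unadjusted p = 0.0167, adjusted p = 0.546), 1.85-fold, and it ranged from 0.62 to 1.05 over the alternatives, in all of which the gene kept the criterion. The signalling receptor of Cxcl12, Cxcr4, read 0.819, 1.58 and 1.54 CPM in MI4KO and 0.984, 1.85 and 2.43 CPM in MI4OE, a log2 fold change of 0.42 (interval -0.59 to 1.42). For its scavenging receptor Ackr3 the log2 fold change was 0.57 with overlapping groups. All 3 Cxcl12 transcripts known to the annotation shared the reads in both groups. The transcript with the highest mean share took 37.1% to 54.0% of the gene's estimated counts in MI4KO and 40.6% to 47.7% in MI4OE, and another was ahead of it in MI4KO replicate 3 and MI4OE replicate 1.

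Cxcl10, an interferon-induced chemokine of activated T cells, read 0.532, 0.515 and 0.940 CPM in MI4KO and 0.0984, 0.315 and 0.221 CPM in MI4OE. Every MI4OE library was below every MI4KO library at these low levels, and the log2 fold change was -1.59 (SE 0.53, edgeR unadjusted p = 0.0187, adjusted p = 0.546). It was not at the criterion without MI4KO replicate 3 (-1.26), MI4OE replicate 1 (-1.29) or MI4OE replicate 3 (-1.62). An exon of Art3 on the opposite strand overlaps Cxcl10 by 133 bases. The related Cxcl9 read 0.450, 2.42 and 2.32 CPM in MI4KO and 2.16, 0.839 and 0.353 CPM in MI4OE. Its groups overlapped widely, with a log2 fold change of -0.65 (interval -2.42 to 1.13). The receptor of both, Cxcr3, was below the 30-count limit. Cxcl14, the most abundant chemokine, read 40.7, 24.2 and 24.7 CPM in MI4KO and 33.5, 53.3 and 44.3 CPM in MI4OE. Only MI4OE replicate 1 fell inside the MI4KO range, and the log2 fold change of 0.55 had an interval from -0.06 to 1.16. Cxcl14 met the criterion in 5 of 16 alternatives, which were total counts without TMM (unadjusted p = 0.0156), both limma fits on TPM, and the fits that left out MI4KO replicate 1 or MI4OE replicate 1. Cxcl16 had a log2 fold change of 0.33 and overlapping groups.

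Cx3cl1, the membrane-bound chemokine known as fractalkine, read 1.92, 2.97 and 5.51 CPM in MI4KO and 4.28, 1.36 and 2.21 CPM in MI4OE. Its receptor Cx3cr1, a marker of resident macrophages and monocytes, read 1.64, 0.674 and 1.21 CPM in MI4KO and 0.640, 0.629 and 0.839 CPM in MI4OE. Neither pair of groups was separate, with log2 fold changes of -0.42 (interval -1.62 to 0.78) and -0.74 (interval -1.71 to 0.24). Of the other chemokine receptors, Cxcr2, which neutrophils use, read 2.66, 2.50 and 2.82 CPM in MI4KO and 4.03, 2.45 and 2.52 CPM in MI4OE, a log2 fold change of 0.17 (interval -0.48 to 0.81). Ccr2, the receptor for Ccl2 on inflammatory monocytes, lay between 0.168 and 0.397 CPM in all libraries and was not tested. No chemokine receptor was at the criterion, although Cx3cr1 reached it, lower in MI4OE, when MI4KO replicate 2 was left out (log2 fold change -1.02).

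**Figure D3:**
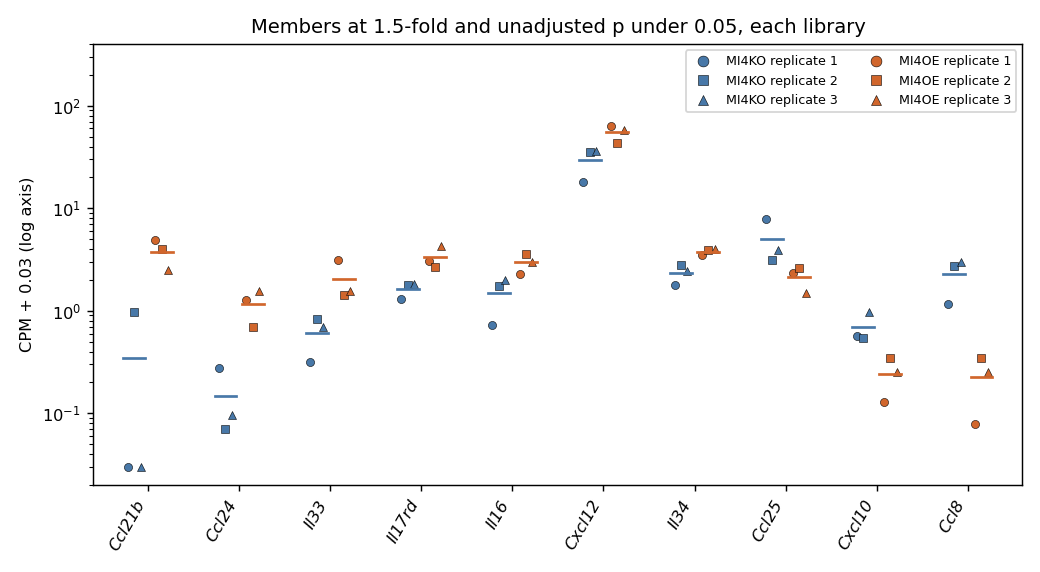
CPM + 0.03 (y axis, log axis) of the 10 members at 1.5-fold and an unadjusted p under 0.05 in each library, by gene (x axis) from the largest positive to the largest negative fold change, with MI4KO in blue, MI4OE in orange and a bar at each group's mean. In all 10 genes the 3 libraries of one group lie above the 3 of the other, and Cxcl12 alone lies above 10 CPM. The genes were picked for a difference in these same libraries, which favours such separation.

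Interleukin ligands were the role with the largest share at the criterion, 3 of 7 (42.9%), all higher in MI4OE, against 6.64% of all genes in either direction and 4.36% higher. Of these 3, Il33 kept the criterion in 16 of 16 alternatives, Il34 in 10 and Il16 in 9. Il33 is an alarmin kept in the nuclei of fibro-adipogenic and endothelial cells, and in muscle it is known to sustain regulatory T cells. It read 0.287, 0.792 and 0.672 CPM in MI4KO and 3.10, 1.40 and 1.55 CPM in MI4OE. No libraries overlapped, and MI4OE replicate 1 held the highest value. The log2 fold change was 1.76 (SE 0.50, edgeR unadjusted p = 0.00819, adjusted p = 0.521), 3.40-fold. Without MI4OE replicate 1 it was 1.32 and still at the criterion. The receptor chains of Il33 showed no such separation. Il1rl1 had a log2 fold change of 0.36 (interval -0.44 to 1.17) and Il1rap -0.22 (interval -1.15 to 0.72).

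Il34, a second ligand of the macrophage growth factor receptor Csf1r, read 1.76, 2.77 and 2.42 CPM in MI4KO and 3.44, 3.85 and 3.93 CPM in MI4OE. The groups were apart with a small spread, and the log2 fold change was 0.69 (SE 0.25, edgeR unadjusted p = 0.0272, adjusted p = 0.578). The criterion was missed without MI4KO replicate 1 (0.52) or 3 (0.71) and without MI4OE replicate 2 (0.67) or 3 (0.64), and in both limma fits. The exons of Il34 overlap 2 antisense transcripts by up to 75 bases. The other ligand Csf1 and the receptor Csf1r had log2 fold changes of 0.10 and 0.31, with overlapping groups in both. Il16, a chemoattractant that uses CD4, read 0.696, 1.70 and 1.98 CPM in MI4KO and 2.26, 3.57 and 2.96 CPM in MI4OE. It did not overlap between groups, with a log2 fold change of 1.0 (SE 0.41, edgeR unadjusted p = 0.0429, adjusted p = 0.633). It was at the criterion in 9 of 16 alternatives, the least of the 10 members. It missed it without MI4KO replicate 1 (0.67) or 2 (1.11) and without MI4OE replicate 2 (0.83) or 3 (0.99), with total counts in place of TMM and in both limma fits, and 1084 bases of its exons overlap Stard5 on the opposite strand.

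Il15, a cytokine that muscle fibres are known to make, was not at the criterion. It read 0.983, 0.911 and 2.92 CPM in MI4KO and 6.74, 1.40 and 2.61 CPM in MI4OE. The log2 fold change of 1.13 (interval -0.43 to 2.70) ranged with 1 library left out from 0.30 without MI4OE replicate 1 to 1.88 without MI4KO replicate 3. Il15 reached the criterion when either MI4KO replicate 3 or MI4OE replicate 2 was left out. The private receptor chain Il15ra, which presents the cytokine, read 9.83, 7.29 and 7.93 CPM in MI4KO and 7.28, 6.71 and 7.33 CPM in MI4OE. Its log2 fold change was -0.23 (interval -0.65 to 0.18), a narrow interval among the members. The common gamma chain Il2rg reached 4.48 CPM in MI4OE replicate 1 against 0.491 to 1.55 CPM in the other 5 libraries. Il17d likewise had its highest value, 2.71 CPM, in that library. Il12a, a subunit of interleukins 12 and 35, was lower in MI4OE without overlap. It read 3.52, 3.01 and 3.46 CPM in MI4KO and 2.12, 2.1 and 2.83 CPM in MI4OE, a log2 fold change of -0.51 (SE 0.24, edgeR unadjusted p = 0.0719).

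Il17rd was the sole receptor gene at the criterion among 22 interleukin receptors (4.55%, near the 6.64% of all genes in either direction and 4.36% higher). Its product, also known as Sef, is an inhibitor of fibroblast growth factor signalling that takes part in interleukin 17 signalling. It read 1.27, 1.74 and 1.81 CPM in MI4KO and 3.0, 2.62 and 4.28 CPM in MI4OE. The groups did not overlap, and the log2 fold change was 1.03 (SE 0.30, edgeR unadjusted p = 0.00949, adjusted p = 0.521), 2.04-fold. Without MI4OE replicate 3 it was 0.79 and not at the criterion, nor was it in limma on log2(TPM + 1). The other interleukin 17 receptor genes did not separate, with log2 fold changes of 0.57 for Il17ra, -0.40 for Il17rc and -0.34 for Il17re. Il20rb was lower without overlap at a log2 fold change of -0.46 (edgeR unadjusted p = 0.12). Il1r1, the interleukin 1 receptor, read 15.2, 5.74 and 5.24 CPM in MI4KO and 3.49, 6.26 and 2.34 CPM in MI4OE. Its log2 fold change of -1.10 (interval -2.29 to 0.08) again had MI4KO replicate 1 far above all other libraries, as did the decoy receptor Il1r2.

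The interleukin 6 and 11 receptor chains were not at the criterion. Il6st, the gp130 chain of the interleukin 6 family, read 107.2, 142.4 and 101.1 CPM in MI4KO and 83.7, 145.4 and 95.8 CPM in MI4OE. The groups ran through each other, with a log2 fold change of -0.11 and an interval from -0.70 to 0.48. Il6ra, the private interleukin 6 chain, had equal means within their spread, 2.18 ± 1.02 CPM (SD, n = 3) for MI4KO against 2.17 ± 0.453 CPM (SD, n = 3) for MI4OE. Il11ra1 read 27.4, 21.1 and 40.0 CPM in MI4KO and 62.1, 28.3 and 37.0 CPM in MI4OE. Its log2 fold change was 0.52 (interval -0.27 to 1.31), with MI4OE replicate 1 highest. Of the remaining members, Il18bp, a soluble trap for interleukin 18, had a log2 fold change of -0.20, and Il4i1, a secreted amino acid oxidase induced by interleukin 4, had -0.37, each with overlap. Exons of Il4i1 and Nup62 overlap on the same strand by 88 bases. Il1bos, an antisense RNA at Il1b, lay between 0.134 and 0.442 CPM.

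The rest of the pathway was read from lists of other cytokines, receptors and signalling genes, again in the same fit. Among 44 tested genes of cytokine signalling (JAK, STAT, SOCS, IRAK, TRAF and NF-κB), none was higher at the criterion, against 4.36% of all genes, and 3 were lower, 6.82% against 2.28%. In either direction the share was near the 6.64% of all genes. They were Cish, Socs2 and Jak2. Cish, a feedback inhibitor induced through STAT5, read 46.8, 53.3 and 12.4 CPM in MI4KO and 1.53, 5.59 and 5.83 CPM in MI4OE. The lowest MI4KO library still held more than any MI4OE library, with a log2 fold change of -3.11 (SE 0.66, edgeR unadjusted p = 0.00169, adjusted p = 0.433). Socs2, another STAT5-induced brake, read 10.3, 13.2 and 17.7 CPM in MI4KO and 4.72, 6.61 and 7.20 CPM in MI4OE. It had a log2 fold change of -1.15 (SE 0.26, edgeR unadjusted p = 0.00229, adjusted p = 0.433). The kinase gene Jak2 read 62.5, 66.8 and 50.4 CPM in MI4KO and 29.2, 40.0 and 38.2 CPM in MI4OE. None of its libraries overlapped either, at a log2 fold change of -0.74 (SE 0.19, edgeR unadjusted p = 0.00471, adjusted p = 0.495). The median log2 fold change of the 44 genes was -0.09.

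Of 26 tested genes for other cytokines and their receptors, 2 were higher and 3 lower at the criterion (background 4.36% and 2.28%). The lower ones included Csf2rb, the beta chain shared by the interleukin 3, interleukin 5 and GM-CSF receptors, and Csf2rb2, the beta chain of the interleukin 3 receptor in mice. Csf2rb read 3.68, 2.97 and 2.82 CPM in MI4KO and 1.13, 0.909 and 1.02 CPM in MI4OE, among the tightest groups of any gene named here. Its log2 fold change was -1.63 (SE 0.27, edgeR unadjusted p = 0.000373, adjusted p = 0.422). Csf2rb2 had a log2 fold change of -1.13 (edgeR unadjusted p = 0.00232, adjusted p = 0.433), also without overlap. The 2 genes are similar in sequence, so part of their reads may have been divided between them. The alpha chains Il3ra (0.59), Il5ra (-0.15) and Csf2ra (-0.32) had overlapping groups at these log2 fold changes, and Csf2 had no count. Lep, the adipocyte hormone leptin, was lower at a log2 fold change of -4.01. Tgfb1 (0.93) and Tnfsf12 (0.75), the genes of transforming growth factor β1 and TWEAK, were higher on that scale, each without overlap. In the list of atypical chemokine receptors and other chemokines, 1 of 10 tested genes was higher and 1 lower. Ackr1, a chemokine-binding receptor of venular endothelium and red cells, read 3.77, 2.02 and 2.65 CPM in MI4KO and 1.87, 1.26 and 1.02 CPM in MI4OE (log2 fold change -1.03, edgeR unadjusted p = 0.0222). Ackr2, a scavenger of CC chemokines, had a log2 fold change of 1.14 with overlapping groups (edgeR unadjusted p = 0.0497).

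**Figure D4:**
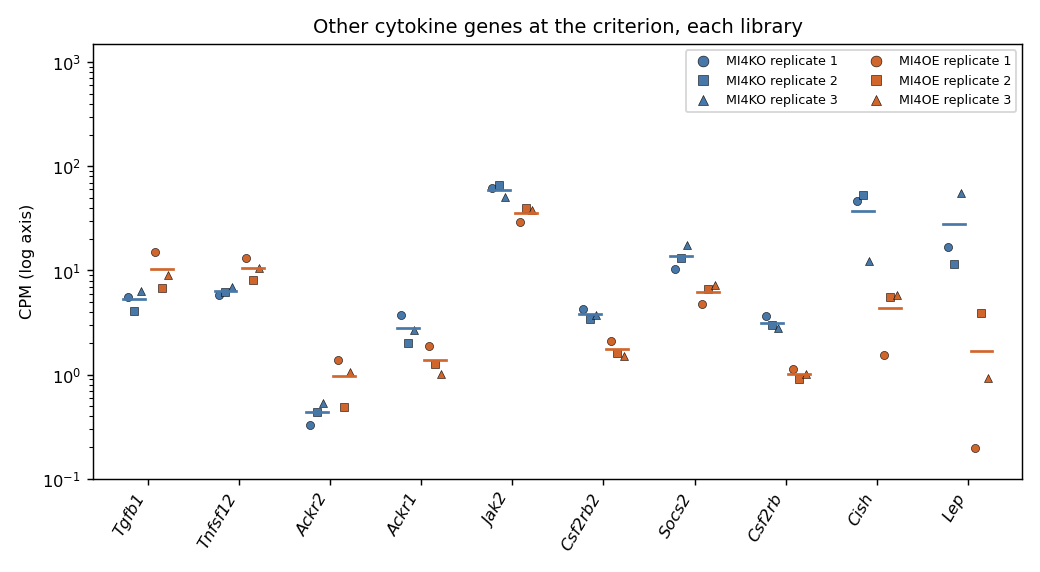
CPM (y axis, log axis) in each library of the 10 genes from the lists of atypical receptors, other cytokines and cytokine signalling that met the criterion, by gene (x axis), with MI4KO in blue, MI4OE in orange and a bar at each group's mean. Cish, Socs2, Jak2, Csf2rb and Csf2rb2 lie lower in every MI4OE library than in every MI4KO library, while Ackr2 overlaps between groups.

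Among the lists of markers of cells that can make these genes, the fibroblast, endothelial and adipocyte lists had 50% to 77.8% of their tested genes at the criterion, where 4.36% of all genes were higher and 2.28% lower. Of 17 macrophage markers tested 5.88% were at the criterion, near the 6.64% of all genes in either direction, though that call was lower (background 2.28%). No tested marker of mast (4), B and plasma (4), dendritic (2), neutrophil (1) or myofibre (12) cells was at the criterion. So few tested genes in the smaller lists cannot show an absence of change. Fewer cells of a type and less RNA per cell cannot be told apart in whole muscle. The 10 fibroblast markers were higher in 9 cases, 7 of them at the criterion (70%), and summed to 255 to 423 CPM in MI4KO and 421 to 610 CPM in MI4OE. All 12 endothelial markers were higher, 6 at the criterion (50%), with sums of 149 to 231 CPM in MI4KO and 262 to 469 CPM in MI4OE. The members lower at the criterion were Ccl25, Ccl8 and Cxcl10. Those higher, like these markers, were Ccl21b, Ccl24, Cxcl12, Il16, Il17rd, Il33 and Il34. Adipocyte markers went the other way, with 9 of 9 tested lower, 7 at the criterion (77.8%), and sums of 537 to 1207 CPM in MI4KO and 294 to 413 CPM in MI4OE, which overlapped without Plin4 (186 to 975 CPM and 115 to 269 CPM). Of 17 macrophage markers tested 14 were lower, 1 of them, Emr1, at the criterion (5.88% of the list, against 6.64% of all genes in either direction), and their sums overlapped, at 59.4 to 107.9 CPM in MI4KO and 41.1 to 88.7 CPM in MI4OE. Cd68 read 1.68 to 4.43 CPM in MI4KO and 1.47 to 4.33 CPM in MI4OE, and Emr1, the gene of F4/80, 0.696 to 2.02 CPM and 0.492 to 0.839 CPM. Of 17 T and NK cell markers, 14 had under 30 counts, with 2 at 0 in every library, and Cd3e stayed at or below 0.369 CPM. Cd28 alone was tested from that list and was lower at the criterion, and without it the summed level was 0.205 to 1.95 CPM in MI4KO and 0.909 to 1.62 CPM in MI4OE. Of 10 B and plasma cell markers 4 were tested, 2 higher and 2 lower with none at the criterion. The list summed to 50.1 to 63.4 CPM, most of it from Xbp1, which other cells also express. Without Xbp1 the sum was 2.46 to 4.16 CPM in MI4KO and 4.59 to 6.47 CPM in MI4OE, and the groups did not overlap. The neutrophil gene S100a8 stayed at or below 0.450 CPM. The mast cell markers were all higher, 4 of 4, with none at the criterion. Erythrocyte markers were higher in 5 of 5 cases, 1 at the criterion (20%), with a sum of 776 CPM in MI4OE replicate 1 against 193 to 317 CPM in the other libraries. Of 12 myofibre markers 10 were lower, none at the criterion, with a sum of 201994 CPM in MI4OE replicate 1 against 276933 to 370038 CPM in the others. The part of these cell markers in the differences of the members was not tested.

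**Figure D5:**
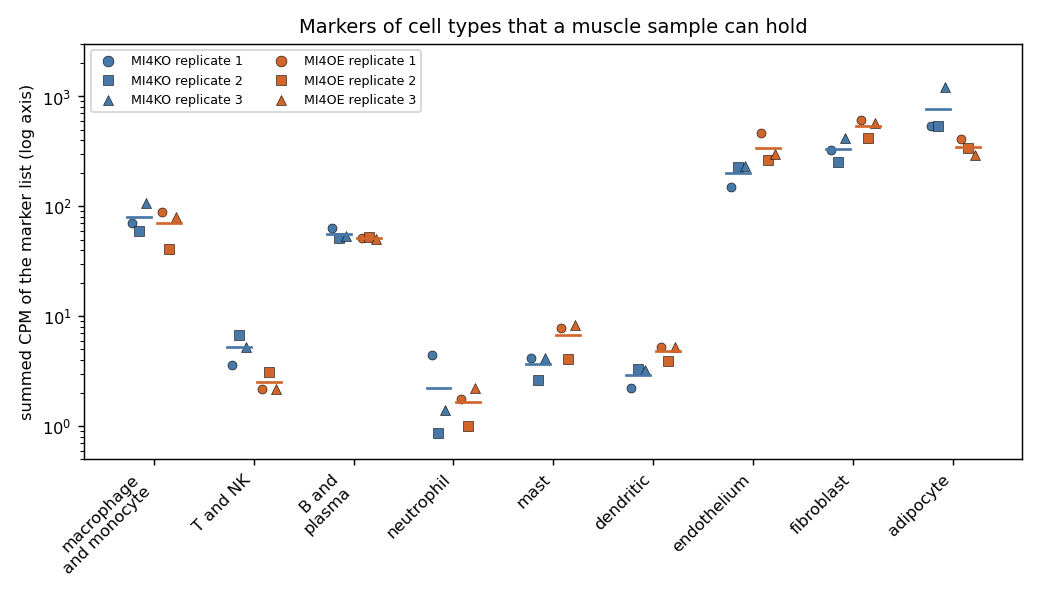
Summed CPM of 9 lists of cell type markers (y axis, log axis) in each library, by cell type (x axis), with MI4KO in blue, MI4OE in orange and a bar at each group's mean. The sums of the T and NK cell and adipocyte lists lie lower, and those of the endothelial and dendritic lists higher, in all MI4OE libraries than in any MI4KO library, and all but the endothelial separation need 1 gene of the list (Cd28, Plin4 or Zbtb46), while the fibroblast sums touch near 420 CPM.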

How the data were processed

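GAS RNA was sequenced as 3 MI4KO and 3 MI4OE libraries (Kapa stranded mRNA, single reads of 50 bp). Per the study's methods, the authors mapped reads to the UCSC transcript set with Bowtie2 2.1.0 and estimated expected counts with RSEM 1.2.15, which divides reads between similar genes, so counts of gene copies are uncertain. The genome build and the use of strand in counting were not given in the sources used here. The deposited values used were expected counts per gene and transcript and TPM. The deposited comparison tables hold the authors' fold changes and p-values and were not used.

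Counts were rounded, filtered (filterByExpr, minimum count 10, minimum total 15) and scaled by TMM, and 12660 genes were tested in R 4.3.3 with edgeR 4.0.16 (quasi-likelihood, Benjamini-Hochberg over all genes tested). CPM used TMM-scaled library sizes. The SE was taken from the F statistic, and intervals are 95%. Alternatives used other filters and scalings, DESeq2 1.42.0, the edgeR exact test and limma 3.58.1 on log2(TPM + 1) and log2(TPM + 0.1). The fit was tested on simulated data. Depth was 18828605 to 29239585 counts, and floors of 3 counts cover counting error only. No 2 libraries agreed within sampling noise. The smallest exact p for 3 against 3 is 0.1.

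The members, lists and tests were chosen with earlier results of these data known. Named genes were Irf4, members with an unadjusted p under 0.05 or with no overlap at 1.5-fold, the 3 most abundant of each role, and genes known in muscle or leukocyte traffic. List genes were named at an unadjusted p under 0.05. Other genes, such as the partners of named ligands and the separated Il12a and Il20rb, were added after their values were seen. Certain genes of the fixed lists are not reported here, and the marker lists were counted and summed without them.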

Additional observations from a re-analysis of the deposited data

How the results depend on the processing

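No member passed an adjusted p of 0.05 in any edgeR quasi-likelihood or limma setting. DESeq2 and the exact test called 2 members each, and over all genes 111 and 112 against 3. Leaving out 1 library gave 1 to 4 genes. Members lower at the criterion numbered 5 without a filter, in DESeq2 and in the exact test, where Ccl6 and Il1r1 joined, and 1 to 8 without 1 library (8 without MI4KO replicate 2, 1 without MI4OE replicate 3). All members at the criterion then ranged from 6 to 14, and all genes from 590 to 1314, while limma on log2(TPM + 1) gave 468. Ccl8, Cxcl12 and Il33 kept the criterion in 16 of 16 alternatives, and Ccl24 in the 15 that tested it. Irf4 lost its call without MI4KO replicate 1 (log2 fold change 12.61, adjusted p 0.0587), and over single left-out libraries the fold change was 10.69 to 12.61. Directions turned for 6 of 28 named genes, none of them at the criterion. Il6ra was at 0.12 without TMM, 0.070 in limma on log2(TPM + 1) and 0.14 with 0.1. With 1 library left out, the ranges were -0.31 to 0.38 (Il6ra), -0.34 to 0.38 (Ccl27a), -0.51 to 0.38 (Il18bp), -0.38 to 0.047 (Il6st), -0.97 to 0.069 (Cx3cl1) and -0.10 to 0.30 (Cxcr2). The cause was not tested. Of 20 transcripts of 5 members none had separate shares between groups, and 0 to 4 did without 1 library, which leaves fewer samples to overlap. No paired analysis was possible because the labels give the groups no shared replicate numbers. Members under about 1 CPM rest on few reads per library.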

Other observations

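2 symbols that begin with Ccr but have no digit next were outside the rule. Ccrl2, an atypical receptor that binds chemerin, read 4.75, 6.54 and 6.21 CPM in MI4KO and 7.58, 7.13 and 7.24 CPM in MI4OE. Its groups did not overlap, at a log2 fold change of 0.33. Ccrn4l, the gene of the deadenylase nocturnin and no cytokine gene, read 25.7, 14.1 and 10.1 CPM in MI4KO and 12.6, 10.9 and 12.6 CPM in MI4OE.

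The 2 annotated transcripts of Il1r1 were assigned in an all-or-none way. RSEM gave all of the gene's estimated counts to the same transcript in MI4KO replicate 1 and MI4OE replicate 2, all to the other in MI4OE replicates 1 and 3, and divided them in MI4KO replicates 2 and 3. The groups overlapped, and the exact permutation p of the share was 0.4.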
